A study of Mus musculus with 12 samples.

Results

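The pentose phosphate pathway was followed through the 8 genes of its core enzymes, which were matched by symbol in the deposited expression table of sorted mouse alveolar type 2 (AT2) cells. The 4 enzymes of the oxidative arm were *G6pdx*, *H6pd*, *Pgls* and *Pgd*, and the 4 of the non-oxidative arm were *Rpia*, *Rpe*, *Tkt* and *Taldo1*. Each had 1 entry among the 21878 genes listed. In this pathway the oxidative arm turns glucose 6-phosphate into ribulose 5-phosphate in irreversible steps that yield NADPH, the reductant used for lipid synthesis and for the recycling of glutathione and thioredoxin. The non-oxidative arm interconverts sugar phosphates reversibly, so that ribose 5-phosphate for nucleotides can be made from, or returned to, the intermediates of glycolysis. AT2 cells secrete the surfactant of the alveolus. They make large amounts of lipid and divide during repair, and both use products of the pathway.

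The samples formed 4 groups of 3, all of AT2 cells sorted as EpCAM+CD24-Sca-1- and CD31-CD34-CD45- from the lungs of C57BL/6 mice. The mice of the BLM experiments were male and aged 8 to 12 weeks. Mice with *Atg5* flanked by loxP sites and no Cre (Atg5f/f, labelled wild type) received PBS (AT2-PBS) or bleomycin (BLM, which damages DNA and injures the alveoli) at 2 U/kg into the trachea (AT2-BLM). Nkx2.1Cre;Atg5f/f mice received PBS (Atg5-/- AT2-PBS) or BLM (Atg5-/- AT2-BLM). *Atg5* encodes a protein needed to form the autophagosome, and its floxed alleles are shared by all 4 groups. Cre is driven by *Nkx2.1*, a gene expressed in the whole lung epithelium, so the deletion is not limited to AT2 cells, and the loss of *Atg5* and the presence of Cre cannot be told apart. Cells were collected at day 14, although the study names no day for Atg5-/- AT2-PBS. The values are FPKM, fragments relative to transcript length and to the mapped fragments of the sample, which allow levels of different genes to be set side by side. The depth of each sample in fragments is unknown.

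FPKM summed to between 390141 and 549169 per sample. *Atg5* itself was at 6.01 to 12.5 FPKM in the Atg5f/f samples and at 6.72 to 10.1 FPKM in the Atg5-/- samples, overlapping after PBS and not after BLM (9.97 to 11.1 FPKM in AT2-BLM, 8.37 to 8.84 FPKM in Atg5-/- AT2-BLM). These whole-gene values do not check the genotype labels, which were taken as given. Of 10 AT2 markers, 9 were at 1 FPKM or more in every sample. The tenth, *Sftpc*, was listed at 0 in 11 samples and at 112570 FPKM in AT2-BLM replicate 2, and *Gapdh*, which all cells use, was listed at 0.298 to 1.08 FPKM. A low listed value is therefore not evidence that a gene was silent. Atg5-/- AT2-PBS stood apart in markers of other cells. The summed level of 13 leukocyte markers was 804 to 2104 FPKM there, 22.9 to 143 FPKM in AT2-PBS, 162 to 249.8 FPKM in AT2-BLM and 71.8 to 624 FPKM in Atg5-/- AT2-BLM. The summed level of 6 liver genes was 1534 to 2640 FPKM in Atg5-/- AT2-PBS, 3.34 to 427 FPKM in AT2-PBS, 172 to 588 FPKM in AT2-BLM and 129 to 898 FPKM in Atg5-/- AT2-BLM. For 6 airway genes it was 23132 to 84645.5 FPKM in Atg5-/- AT2-PBS and 4959.5 to 11756 FPKM in AT2-PBS. It was 881 to 4968 FPKM in AT2-BLM and 1156 to 2182 FPKM in Atg5-/- AT2-BLM. For 6 fibroblast genes it was 88.2 to 97.7, 3.53 to 14.7, 6.81 to 42.0 and 5.26 to 17.2 FPKM in the same order. In RNA from sorted populations, a change in the number of cells of a type and a change in RNA per cell cannot be told apart.

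The sequences directly upstream of 3 of the genes are shown because the results below turn on them: *G6pdx*, the entry enzyme, *Taldo1*, the member at the highest level, and *Tkt*, which was called in none of the 5 comparisons on the deposited FPKM scale. They are the 250 bases before the annotated start site in RefSeq (GRCm38.p6), read 5′ to 3′ on the strand of the gene. For *G6pdx* (chrX:74428881-74429130, minus strand) the capitals mark a match to TGACNNNGC, the core of the antioxidant response element, and for *Taldo1* (chr7:141391910-141392159, plus strand) and *Tkt* (chr14:30548881-30549130, plus strand) they mark GC boxes, GGGCGG.
G6pdx: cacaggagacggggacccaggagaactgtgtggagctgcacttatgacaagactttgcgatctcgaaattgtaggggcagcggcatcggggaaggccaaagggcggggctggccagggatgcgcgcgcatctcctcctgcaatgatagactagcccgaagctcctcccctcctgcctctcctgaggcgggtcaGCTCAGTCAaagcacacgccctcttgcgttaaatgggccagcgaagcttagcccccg
Taldo1: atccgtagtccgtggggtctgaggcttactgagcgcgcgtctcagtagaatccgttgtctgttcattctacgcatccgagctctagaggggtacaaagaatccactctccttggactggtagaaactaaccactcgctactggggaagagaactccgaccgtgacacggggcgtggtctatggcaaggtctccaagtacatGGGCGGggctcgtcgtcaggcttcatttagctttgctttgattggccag
Tkt: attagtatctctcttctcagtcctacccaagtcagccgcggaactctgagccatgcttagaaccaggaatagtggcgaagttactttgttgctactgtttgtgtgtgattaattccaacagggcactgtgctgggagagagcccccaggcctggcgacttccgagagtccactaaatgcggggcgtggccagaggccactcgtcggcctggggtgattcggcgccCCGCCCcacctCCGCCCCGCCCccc

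Both strands were searched, in all 9 annotated promoters of the 8 genes and in 32851 promoters of the same length. The match in *G6pdx* lay on the opposite strand as GCTCAGTCA, 57 bases before the start site, and *G6pdx* was the only 1 of the 8 genes with this motif, which 10.2% of all promoters held. The GC box was in 7 of the 8 genes, *H6pd* being the exception, and in 32.7% of all promoters. *Tkt* had 3 GC boxes within the last 25 bases, of which 2 shared a base. CCAAT was found in *Pgd*, *H6pd* and *Taldo1* and in 33.8% of all promoters. TGACTCA (4.46% of all promoters) and CACGTG (6.02%) were in none of the 8 genes in this window. These matches describe the letters only.

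*G6pdx* encodes cytosolic glucose 6-phosphate dehydrogenase, the committed and first NADPH-producing step. It lies on chromosome X from 71654822 to 71674533 of mm9 (NCBIM37). In AT2-PBS replicates 1 to 3 it was at 33.0, 29.3 and 30.2 FPKM, and in Atg5-/- AT2-PBS at 41.6, 38.7 and 39.6 FPKM. With BLM it was at 56.3, 54.9 and 89.4 FPKM in AT2-BLM and 45.2, 30.0 and 51.3 FPKM in Atg5-/- AT2-BLM. Every AT2-BLM sample was above every sample of the other 3 groups, and the 2 PBS groups did not overlap either. Its retrogene copy *G6pd2* was listed at 0 in all samples.

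*Pgls* encodes 6-phosphogluconolactonase, the hydrolase of the second step (chromosome 8, 74116075 to 74124991). It was at 39.7, 45.2 and 32.0 FPKM in AT2-PBS and 58.8, 50.6 and 86.6 FPKM in AT2-BLM, 2 groups that did not overlap. It was at 49.2, 50.7 and 47.6 FPKM in the Atg5-/- AT2-PBS samples and 44.2, 62.0 and 52.6 FPKM in Atg5-/- AT2-BLM, which overlapped each other. *Pgd* encodes 6-phosphogluconate dehydrogenase, the second NADPH-producing step (chromosome 4, 148524100 to 148540880). It was at 79.9, 68.8 and 85.3 FPKM in AT2-PBS and 124, 116 and 162 FPKM in AT2-BLM. With *Atg5* deleted it was at 114, 98.2 and 89.6 FPKM after PBS and 92.9, 102 and 125 FPKM after BLM. As for *Pgls*, BLM separated the Atg5f/f samples and not the Atg5-/- samples.

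*H6pd* encodes the dehydrogenase of the endoplasmic reticulum, which carries out the first steps inside that compartment and supplies NADPH there (chromosome 4, 149353584 to 149383132). It was at 34.9, 26.7 and 23.3 FPKM in AT2-PBS, 36.7, 40.8 and 36.2 FPKM in AT2-BLM, 22.5, 18.0 and 26.1 FPKM in Atg5-/- AT2-PBS and 32.7, 28.1 and 40.7 FPKM in Atg5-/- AT2-BLM. Unlike the cytosolic enzymes, it was above the PBS range after BLM in both genotypes. *H6pd* was 47.6 ± 3.92% of the summed *G6pdx* and *H6pd* level in AT2-PBS, 37.0 ± 7.24% in AT2-BLM, 35.5 ± 3.99% in Atg5-/- AT2-PBS and 44.9 ± 3.25% in Atg5-/- AT2-BLM (SD, n = 3 each).

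*Taldo1* encodes transaldolase, which moves a dihydroxyacetone unit between sugar phosphates (chromosome 7, 148578098 to 148588867). It was at 157, 142 and 183 FPKM in AT2-PBS, 327, 316 and 528 FPKM in AT2-BLM, 347, 338 and 275 FPKM in Atg5-/- AT2-PBS and 213, 311 and 284 FPKM in Atg5-/- AT2-BLM. All 9 samples with BLM, *Atg5* deletion or both were above the 3 AT2-PBS samples. *Tkt* encodes transketolase, the thiamine-dependent enzyme that moves a glycolaldehyde unit (chromosome 14, 31361545 to 31387908). It was at 65.5, 62.1 and 56.7 FPKM in AT2-PBS, 56.1, 58.0 and 71.0 FPKM in AT2-BLM, 61.3, 69.9 and 61.6 FPKM in Atg5-/- AT2-PBS and 64.7, 60.3 and 59.2 FPKM in Atg5-/- AT2-BLM. The 4 groups overlapped for *Tkt* in every pairing.

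The pentose phosphate isomerases had the lowest listed values. *Rpe*, ribulose-phosphate 3-epimerase (chromosome 1, 66747405 to 66766379), was at 9.36 to 11.0 FPKM in AT2-PBS, 11.9 to 14.1 FPKM in AT2-BLM, 9.39 to 11.1 FPKM in Atg5-/- AT2-PBS and 9.94 to 13.9 FPKM in Atg5-/- AT2-BLM. *Rpia*, ribose 5-phosphate isomerase (chromosome 6, 70715714 to 70742226), had listed values of 0.321, 0.425 and 0.168 FPKM in AT2-PBS and 0.0643, 0 and 0.186 FPKM in AT2-BLM. It was at 0.269, 0.409 and 0.141 FPKM in the Atg5-/- AT2-PBS samples and 0.264, 0.387 and 0.0667 FPKM in Atg5-/- AT2-BLM. *Rpia* was under 1 FPKM in all 12 samples and was therefore not tested. As for *Sftpc* and *Gapdh*, such values may not be its true level, and its last place in the order below is a place among listed values. The other 7 genes passed the filter of 1 FPKM or more in at least 3 samples, as did 10675 of all genes.

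**Figure D1:**
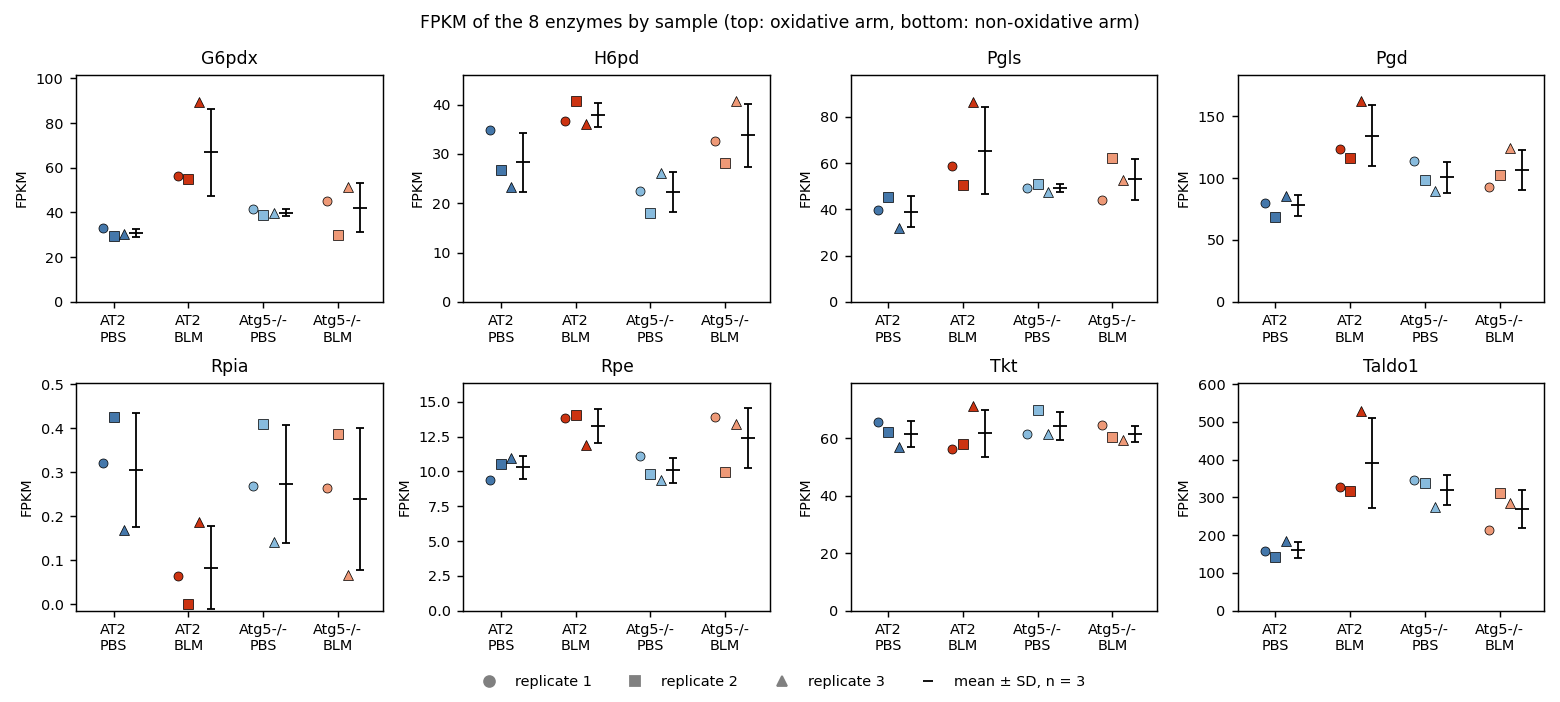
Level of each of the 8 pentose phosphate pathway enzymes in FPKM (vertical axes, each panel with its own scale) in the 4 groups; points are the 3 samples of a group and bars the mean ± SD, and the lower bar of *Rpia* in AT2-BLM runs below 0. *G6pdx* sits highest in the 3 AT2-BLM samples (54.9 to 89.4 FPKM), *Taldo1* is lowest in AT2-PBS (142 to 183 FPKM), and *Tkt* stays between 56.1 and 71.0 FPKM throughout.

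In AT2-PBS the order of mean levels was *Taldo1* (161 ± 20.9 FPKM), *Pgd* (78.0 ± 8.43), *Tkt* (61.5 ± 4.42), *Pgls* (39.0 ± 6.62), *G6pdx* (30.8 ± 1.89), *H6pd* (28.3 ± 5.93), *Rpe* (10.3 ± 0.840) and *Rpia* (0.305 ± 0.129; SD, n = 3 each). The neighbours *Pgls* and *G6pdx*, and *G6pdx* and *H6pd*, did not differ beyond their spread, and the ranges of the other neighbours did not overlap. *Taldo1* and *Pgd* held the first places, and *H6pd*, *Rpe* and *Rpia* the last, in all 4 groups. The middle of the order changed in AT2-BLM, where *G6pdx* (66.9 ± 19.5 FPKM), *Pgls* (65.3 ± 18.9 FPKM) and *Tkt* (61.7 ± 8.12 FPKM; SD, n = 3 each) overlapped. In Atg5-/- AT2-PBS the ranges of all neighbours were apart, in the same order as in AT2-PBS. In Atg5-/- AT2-BLM the order was again that of AT2-PBS, and *Tkt*, *Pgls*, *G6pdx* and *H6pd* overlapped from each to the next.

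The first question of the design was what BLM did to cells with *Atg5*. *G6pdx*, *Pgd*, *Pgls* and *Taldo1* rose in AT2-BLM relative to AT2-PBS. Differences are log2 changes of FPKM + 1, which understate the change of low genes, and calls used the criteria of the study, a fold change of at least 1.4 and an unadjusted p under 0.05. *Taldo1* rose by 1.24 (standard error 0.22; adjusted p = 0.00398 from limma, by the Benjamini-Hochberg method over all tested genes) and *G6pdx* by 1.06 (0.21; adjusted p = 0.00795 from limma). *Pgd* rose by 0.76 (0.17; adjusted p = 0.0119 from limma) and *Pgls* by 0.71 (0.20; adjusted p = 0.0331 from limma). In all, 4 of 7 tested enzymes were called, each higher, against 28.4% of all tested genes called in either direction. The ranges of 6 of the 7 were apart, against 40.2% of all tested genes.

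*H6pd* (0.43, standard error 0.19; adjusted p = 0.137 from limma) did not reach the fold change, and *Rpe* (0.34, 0.16; adjusted p = 0.154 from limma) reached neither criterion. Their 3 AT2-BLM samples were nevertheless above the 3 AT2-PBS samples. For *Tkt* the log2 difference was 0.000242, with a 95% interval from -0.28 to 0.28. The oxidative arm thus had 3 of 4 enzymes called higher, with a median log2 change of 0.74, and the non-oxidative arm 1 of 3 tested, with a median of 0.34. The median over all tested genes was 0.17, and quantile normalization, median-ratio scaling and scaling to *Cdh1*, an epithelial cadherin gene, moved it to -0.015, 0.020 and -0.015. Relative to the median of all genes, *Taldo1* was 1.07 higher, *G6pdx* 0.89, *Pgd* 0.59, *Pgls* 0.54 and *Tkt* -0.17.

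The calls of *G6pdx* and *Taldo1* held in each alternative tried. Their adjusted p from limma ranged from 0.00384 to 0.0493 for *G6pdx* and from 0.00268 to 0.123 for *Taldo1*. *Pgls* was no longer called after quantile normalization, *Pgls* and *Pgd* not after scaling to *Cdh1*, and *H6pd* was called when AT2-PBS replicate 1 was left out (0.58). Markers of other cells moved in this comparison too. Of the markers tested, 5 of 12 leukocyte, 5 of 6 liver, 3 of 6 AT1, 2 of 3 endothelial, 1 of 2 erythroid and 4 of 4 proliferation genes were called higher. Lower were 4 of 4 airway genes, and of 9 AT2 markers 1 was called higher and 2 lower. The part of all these markers in the result was not tested. AT2-BLM replicate 3, with the highest *G6pdx*, *Pgls*, *Pgd* and *Taldo1*, had the lowest leukocyte (162 FPKM), liver (172 FPKM) and AT2 sums of its group. Its AT2 sum was 23949 FPKM, against 40941.5 FPKM in replicate 1 and, with *Sftpc* listed at 112570 FPKM, 152786 FPKM in replicate 2. It also had the highest AT1 sum (3462 FPKM), airway sum (4968 FPKM) and fibroblast sum (42.0 FPKM) of the 3 AT2-BLM samples.

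The second question was what the loss of *Atg5* did during BLM. *G6pdx* and *Taldo1* were lower in Atg5-/- AT2-BLM than in AT2-BLM by the criteria of the study, and neither these 2 nor the other 5 passed adjustment over all genes. *G6pdx* fell by 0.65 (standard error 0.21; adjusted p = 0.607 from limma) and *Taldo1* by 0.51 (0.22; adjusted p = 0.621 from limma). Both were apart from the AT2-BLM range, so that 2 of 7 were called and 2 of 7 were apart, against 5.16% and 13.4% of all tested genes. The log2 differences were -0.32 for *Pgd*, -0.28 for *Pgls*, -0.17 for *H6pd*, -0.098 for *Rpe* and 0.00015 for *Tkt* (95% interval -0.28 to 0.28), none of them called. Without AT2-BLM replicate 3 the value was -0.18 for *Pgd* and -0.056 for *Pgls*, and without Atg5-/- AT2-BLM replicate 2 it was -0.052 for *H6pd*. The median was -0.30 over the 4 oxidative enzymes, -0.098 over the 3 non-oxidative ones tested and -0.049 over all tested genes.

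Both calls rested on single samples. Without AT2-BLM replicate 3, the differences of *G6pdx* and *Taldo1* were -0.43 and -0.27 and neither was called. The call of *G6pdx* was also lost without Atg5-/- AT2-BLM replicate 2 (-0.43) and with scaling to *Cdh1*, and that of *Taldo1* without Atg5-/- AT2-BLM replicate 1 (-0.35), with quantile normalization, median-ratio scaling or scaling to *Cdh1* and in a fit of the compared groups alone. In this comparison 1 of 12 leukocyte and 1 of 4 airway markers were called higher. Of AT1 markers 2 of 6 and of fibroblast markers 1 of 5 were called lower, and 0 of 9 AT2 markers in either direction. The liver sums of the 2 groups overlapped. The part of these markers in the result was not tested.

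Without injury, the loss of *Atg5* raised *Taldo1* alone among the 7 tested enzymes by the call, by 0.99 (standard error 0.22; adjusted p = 0.00886 from limma). This is 1 of 7, against 19.3% of all tested genes called. The log2 differences between Atg5-/- AT2-PBS and AT2-PBS were 0.37 for *G6pdx* (adjusted p = 0.359 from limma), 0.36 for *Pgd* (adjusted p = 0.235), 0.34 for *Pgls* (adjusted p = 0.366), -0.33 for *H6pd*, 0.063 for *Tkt* and -0.027 for *Rpe*. The ranges of *G6pdx*, *Pgls* and *Pgd* were apart as well as that of *Taldo1*, which makes 4 of 7 against 28.9% of all tested genes. In Atg5-/- AT2-PBS all 12 tested leukocyte markers, all 6 liver genes, 3 of 4 airway and 4 of 5 fibroblast markers were called higher. So were 2 of 2 erythroid and 1 of 3 endothelial markers, and of 6 AT1 markers 2 were called higher and 1 lower. Of 9 AT2 markers, 1 was called higher and 3 lower. The part of these markers in the change of *Taldo1* was not tested. AT2-PBS replicate 1 had a liver sum of 427 FPKM, against 5.51 and 3.34 FPKM in replicates 2 and 3. Its leukocyte sum was 143 FPKM, against 22.9 and 71.6 FPKM, and its *Taldo1* level of 157 FPKM lay between theirs. Both sums came from 1 sample and were below those of Atg5-/- AT2-PBS (liver 1534 to 2640 FPKM, leukocyte 804 to 2104 FPKM), so no conclusion is drawn from them. Scaling to *Cdh1* moved the median of all genes from 0.019 to 0.34, and *G6pdx*, *Pgls* and *Pgd* were then also called higher, while *Tkt* was at 0.45 and not called.

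In cells labelled Atg5-/-, *H6pd* was the enzyme called higher after BLM, by 0.58 (standard error 0.19; adjusted p = 0.082 from limma). This made 1 of 7 called and 1 of 7 with ranges apart, against 18.4% and 24.9% of all tested genes. The log2 differences of the enzymes that had risen in Atg5f/f cells were 0.041 for *G6pdx* (95% interval -0.43 to 0.51), 0.078 for *Pgd* (-0.29 to 0.45), 0.092 for *Pgls* (-0.35 to 0.53) and -0.26 for *Taldo1* (-0.73 to 0.21). *Rpe* differed by 0.27 and *Tkt* by -0.063, and with scaling to *Cdh1* *Tkt* was the enzyme called at -0.52. The call of *H6pd* was lost without Atg5-/- AT2-PBS replicate 2 (0.45), without Atg5-/- AT2-BLM replicate 3 (0.45) and with scaling to *Cdh1*. In this comparison 2 of 9 AT2, 4 of 6 AT1 and 4 of 4 proliferation markers were called higher. All 12 leukocyte markers, 4 of 6 liver, 4 of 4 airway, 4 of 5 fibroblast and 1 of 3 endothelial markers were called lower. The part of these markers in the result was not tested.

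**Figure D2:**
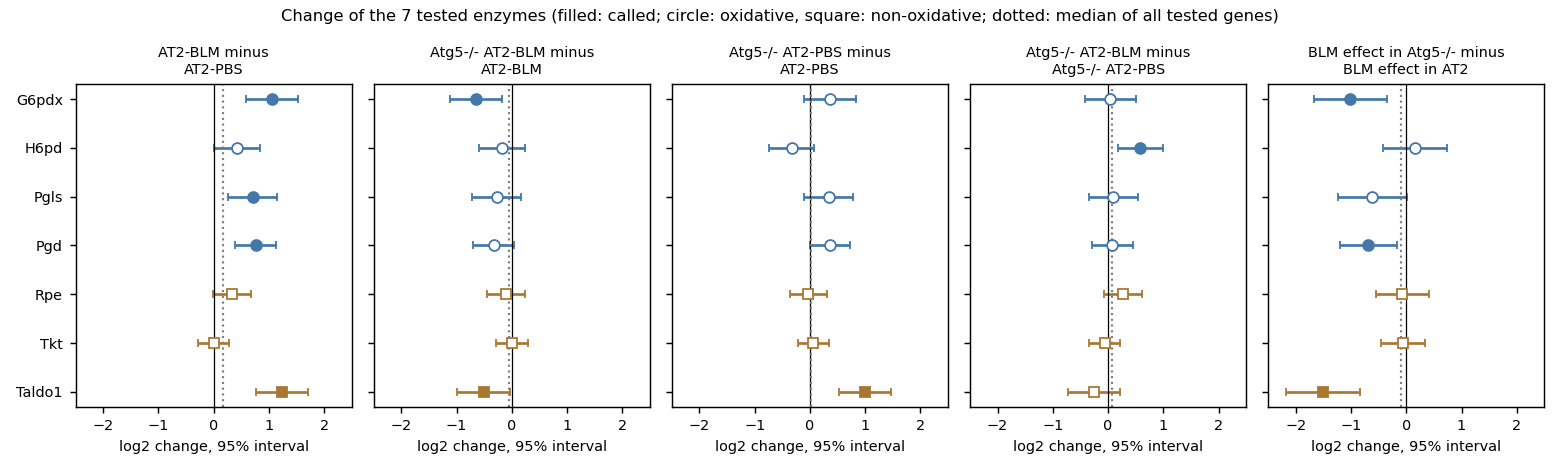
Log2 difference of FPKM + 1 (horizontal axis) for the 7 tested enzymes (1 line each) in the 5 comparisons (panels), with points for the estimate from limma, filled where called, bars for its 95% interval and a dotted line for the median of all tested genes. *G6pdx*, *Pgls*, *Pgd* and *Taldo1* lie right of 0 with BLM in Atg5f/f cells, *Tkt* stays between -0.063 and 0.063 in every panel, and *Taldo1* reaches -1.50 for the difference of the BLM effect between genotypes.

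The effect of BLM was then compared between the genotypes by the interaction term, which shares its samples with the comparisons above. The BLM effect on *Taldo1* was lower in Atg5-/- cells by 1.50 on the log2 scale (standard error 0.31; adjusted p = 0.0123 from limma), that of *G6pdx* by 1.02 (0.30; adjusted p = 0.0638 from limma) and that of *Pgd* by 0.69 (0.24; adjusted p = 0.113 from limma). These 3 of 7 were called, against 20.2% of all tested genes. *Pgls* (-0.62; adjusted p = 0.25 from limma), *H6pd* (0.16), *Rpe* (-0.071) and *Tkt* (-0.063) were not called. *Pgd* was not called after quantile normalization (-0.46), and *Pgls* was called without replicate 2 of AT2-PBS (-0.73), of AT2-BLM (-0.78) or of Atg5-/- AT2-BLM (-0.74). The difference for *Taldo1* was made up of a higher level in Atg5-/- AT2-PBS and a lower level in Atg5-/- AT2-BLM than in the matched Atg5f/f group, and over the alternatives the adjusted p that limma gave it ranged from 0.0102 to 0.0700. All 12 leukocyte markers and all 6 liver genes were called lower in the interaction. So were 4 of 5 fibroblast, 3 of 6 AT1, 2 of 4 airway, 2 of 2 erythroid and 1 of 3 endothelial markers. Of 9 AT2 markers, 3 were called higher and 1 lower. The part of all these markers in these results was not tested.

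The arms were compared by their summed FPKM in each sample, as a description with no test. The oxidative sum was 176 ± 9.87 FPKM in AT2-PBS, 304 ± 61.2 FPKM in AT2-BLM, 212 ± 13.4 FPKM in Atg5-/- AT2-PBS and, in Atg5-/- AT2-BLM, 235 ± 29.4 FPKM. The non-oxidative sum was 233 ± 18.1, 466 ± 126, 395 ± 42.1 and 343 ± 46.7 FPKM in the same order (SD, n = 3 each). The means of both sums were highest in AT2-BLM and lowest in AT2-PBS. The oxidative share of the 8-enzyme sum was 43.1 ± 2.29% in AT2-PBS, 39.8 ± 1.56% in AT2-BLM, 35.0 ± 2.00% in Atg5-/- AT2-PBS and 40.7 ± 3.44% in Atg5-/- AT2-BLM.

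*Taldo1* weighed heavily in this share. Without it, the oxidative share was 71.0 ± 0.885% in AT2-PBS, 80.0 ± 1.70% in AT2-BLM, 73.9 ± 1.91% in Atg5-/- AT2-PBS and 75.9 ± 2.79% in Atg5-/- AT2-BLM (SD, n = 3 each). The order of the means turned with BLM in Atg5f/f cells, with *Atg5* loss after PBS and with *Atg5* loss during BLM. With *Taldo1*, however, the shares of AT2-BLM (38.0 to 40.9%) overlapped those of AT2-PBS (40.5 to 44.7%) and of Atg5-/- AT2-BLM (36.8 to 43.0%). Without it, AT2-BLM (78.5 to 81.8%) and Atg5-/- AT2-BLM (73.1 to 78.7%) still overlapped. The enzymes of the non-oxidative arm parted from each other. The ratio of *Taldo1* to *Tkt* was 2.40, 2.29 and 3.23 in AT2-PBS, 5.84, 5.45 and 7.44 in AT2-BLM, 5.66, 4.84 and 4.47 in Atg5-/- AT2-PBS and 3.28, 5.16 and 4.80 in Atg5-/- AT2-BLM. Every sample with BLM or *Atg5* deletion had a higher ratio than the AT2-PBS samples, and the 3 AT2-BLM samples did not overlap those of Atg5-/- AT2-BLM. Within the oxidative arm the ratio of *Pgd* to *G6pdx* had closer group means, at 2.53 ± 0.258, 2.04 ± 0.202, 2.51 ± 0.239 and 2.63 ± 0.698 in the same order of groups (SD, n = 3 each).

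**Figure D3:**
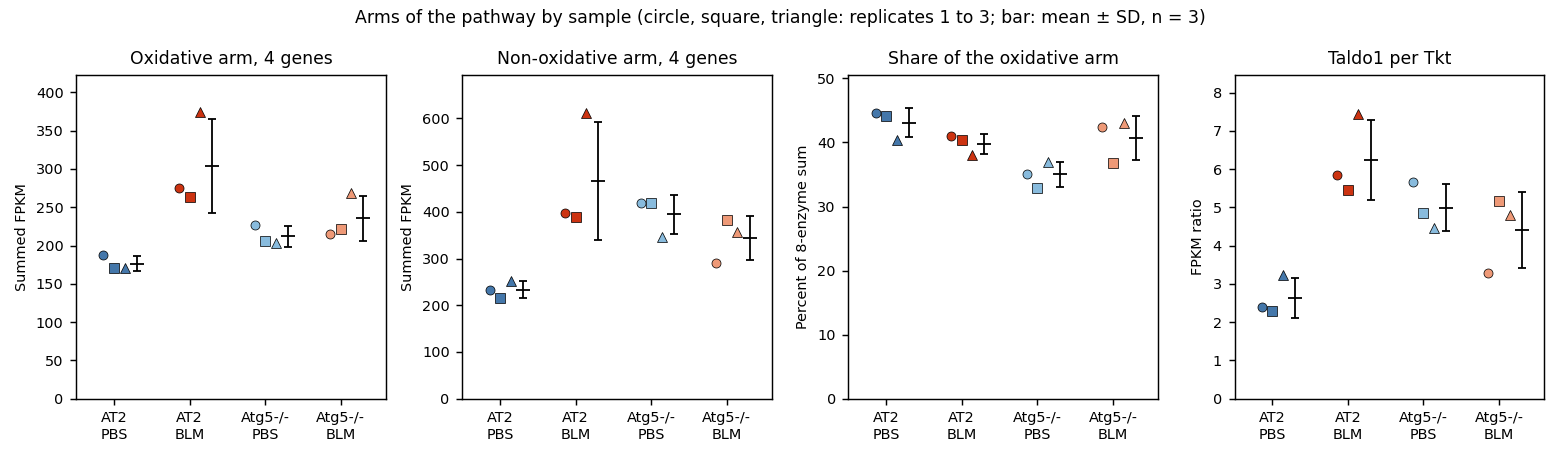
Summed FPKM of the 2 arms, the oxidative share of the 8-enzyme sum (%) and the *Taldo1* to *Tkt* ratio in the 4 groups (vertical axes); points are the 3 samples of a group and bars the mean ± SD. Both mean sums are highest in AT2-BLM, while the mean oxidative share is highest in AT2-PBS (43.1%) and the *Taldo1* to *Tkt* ratio lowest there (2.29 to 3.23).

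Genes whose profile over the 12 samples was most like that of *G6pdx* were found by the root mean square difference of centred log2(FPKM + 1). They were *Txnrd1* (0.124), which encodes the NADPH-dependent thioredoxin reductase of the cytosol, *Pgam5* (0.144), a mitochondrial phosphatase, *Vipr2* (0.151), a receptor for vasoactive intestinal peptide, *Nipa2* (0.159), a magnesium transporter, and *Rusc2* (0.161). The median difference over all tested genes was 0.491. *Txnrd1* was at 32.1, 25.9 and 25.5 FPKM in AT2-PBS, 46.3, 50.8 and 79.1 FPKM in AT2-BLM, 36.0, 39.4 and 33.9 FPKM in Atg5-/- AT2-PBS and 47.3, 32.5 and 44.6 FPKM in Atg5-/- AT2-BLM. As for *G6pdx*, AT2-BLM replicate 3 was its highest sample. All these genes were read in the same 12 libraries and were chosen for their likeness to *G6pdx* in them, so the shared pattern is part of the choice.

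The genes most like *Tkt* were *Smc6* (0.0883), a subunit of a chromosome-maintenance complex, *Man1a2* (0.0916), a mannosidase of the Golgi, *Idh3g* (0.0929), a subunit of the NAD-dependent isocitrate dehydrogenase, *Rab24* (0.0947), a small GTPase, and *Atraid* (0.0962). The median for *Tkt* over all tested genes was 0.327. *Idh3g* was at 80.6 to 96.1 FPKM over the 12 samples. The 5 genes were not called in any comparison, which follows largely from their choice by likeness to *Tkt*, itself not called, in these samples.

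Neighbouring genes were taken from lists of the reactions that feed or use the pathway, for the 2 comparisons the study centred on. Among 14 accessory genes, such as paralogues and sugar kinases, 8 were tested, and BLM in Atg5f/f cells raised 3 and lowered 1 by the call (median log2 change 0.40), against 28.4% of all tested genes called in this comparison and a median of 0.17. *Tigar*, whose product lowers fructose bisphosphate and so favours the pathway, rose by 0.84, *Pgm2*, a phosphoglucomutase, by 0.84 and *Dera*, an aldolase for deoxyribose phosphate, by 0.79, while *Khk*, the fructose kinase, fell by 0.63. The transketolase paralogues *Tktl1* and *Tktl2* were at 0.103 FPKM or less in every sample. Among 23 genes at the glucose 6-phosphate node, 20 were tested, with 7 called higher and 2 lower (median 0.46). The hexokinase genes *Hk1* and *Hk2* rose by 1.03 and 0.94, and *Aldoc*, an aldolase, fell by 0.87.

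Of 20 NADPH-dependent reductases and other users, 18 were tested, with 6 called higher and 2 lower with BLM in Atg5f/f cells (median 0.36), against 28.4% of all tested genes called. *Cbr3*, a carbonyl reductase, rose by 2.73, *Nqo1*, a quinone reductase, by 2.70 and *Akr1b8*, an aldo-keto reductase, by 2.08, and *Txnrd3* fell by 1.16. *Nqo1* was at 2.46, 2.70 and 2.26 FPKM in AT2-PBS and 15.5, 14.9 and 42.8 FPKM in AT2-BLM. Of 12 genes of the NRF2 axis, the transcriptional response to oxidants, 11 were tested, with 5 called, each higher (median 0.24), which fell to 3 after quantile normalization or median-ratio scaling and to 1 with scaling to *Cdh1*. They included *Srxn1*, sulfiredoxin (2.00), the ferritin chains *Fth1* (0.91) and *Ftl1* (0.64), and *Nfe2l2*, which encodes NRF2 (0.83, adjusted p = 0.053 from limma).

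Of 15 other NADPH genes, 12 were tested, with 4 called higher and 1 lower (median 0.098, below the 0.17 of all tested genes). *Mthfd2*, of mitochondrial folate metabolism, rose by 1.397, *Me1*, malic enzyme, by 0.62 and *Nadk*, NAD kinase, by 0.57, and the mitochondrial kinase *Nadk2* fell by 1.08. All 22 genes of phosphoribosyl pyrophosphate and nucleotide synthesis were tested, with 5 called higher and 2 lower, a share near the 28.4% of all tested genes called and with a median (0.073) below theirs. The ribonucleotide reductase subunits *Rrm2* and *Rrm1* rose by 1.90 and 0.64, *Umps*, of pyrimidine synthesis, by 0.81 and *Hprt*, of purine salvage, by 0.62, beside the 4 proliferation genes called higher.

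With *Atg5* loss during BLM, none of these neighbours passed adjustment, and those called had adjusted p from limma of 0.607 to 0.621. Among the 18 tested NADPH-dependent reductases and other users 3 were called lower and 2 higher, against the 5.16% of all tested genes called. *Nqo1* fell by 1.09, *Cbr3* by 1.03 and *Akr1b8* by 0.70, and *Cybb*, the phagocyte oxidase subunit, rose by 0.83. *Srxn1* of the NRF2 axis fell by 1.26. *Khk* rose by 0.61 among the accessory genes and *Pfkfb2*, a phosphofructokinase 2 isoform, by 0.55 at the glucose 6-phosphate node. No gene was called among the other NADPH sources or the nucleotide genes, where limma gave an unadjusted p under 0.05 for 0 and 3 genes. The list medians lay between -0.23 and -0.10, beside -0.049 over all tested genes. For *Nqo1*, *Cbr3*, *Srxn1* and *Akr1b8* the 3 Atg5-/- AT2-BLM samples were below the 3 AT2-BLM samples, as for *G6pdx* and *Taldo1*. These were the genes already called lower, and the ranges of 13.4% of all tested genes were apart in this comparison. Of the genes named as called higher, *Khk* and *Pfkfb2* were apart as well and *Cybb* was not.

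**Figure D4:**
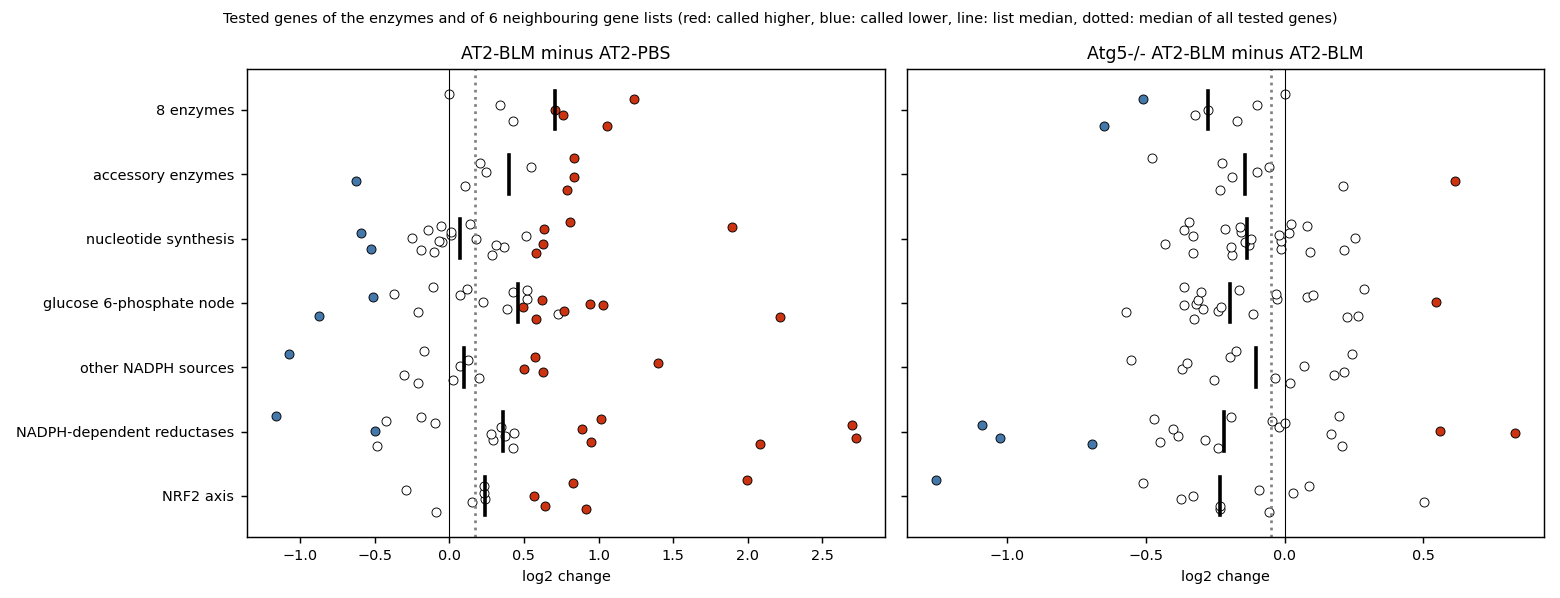
Log2 difference of FPKM + 1 (horizontal axis) for each tested gene (points, spread vertically only to be seen) of the enzymes and of the 6 neighbouring lists, with BLM in Atg5f/f cells (left) and with *Atg5* loss during BLM (right), the list median as a short line and the median of all tested genes dotted. The reductases reach 2.73 with BLM, and the list medians lie between -0.23 and -0.10 with *Atg5* loss.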

How the data were processed

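RNA of sorted AT2 cells was measured in 4 groups of 3 biological replicates. The authors sequenced stranded mRNA libraries and deposited FPKM per gene. According to the methods, reads were checked with FastQC, trimmed with Trimmomatic and aligned to mm9 with STAR, and FPKM were computed with Cufflinks. The submitters' processing notes list Trimmomatic 0.36, HISAT2 2.2.1.0, Cufflinks 2.2.1 and HTSeq 0.9.1, so the aligner differs between the sources. A further normalization is also stated, and whether the deposited FPKM include it is unclear. The values summed to different totals per sample. Groups came from the sample titles, which for AT2-PBS replicate 3 give another number than the description does. P-values rest on a spread for each gene that was pooled over the 4 groups of 3 samples and moderated across genes. They do not measure the spread of the compared groups alone.

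The 10675 genes that reached an FPKM of 1 in 3 or more samples were fitted as log2(FPKM + 1) by limma 3.58.1 under R 4.3.3 (lmFit, eBayes with trend), all 12 samples together, with Benjamini-Hochberg adjustment over all tested genes. An exact permutation test of 3 against 3 samples cannot give a two-sided p below 0.1 and was not used. The fit was run on simulated log2 values drawn from a normal distribution, independently for each gene and sample. These held no shift of a whole sample, no RNA of other cells and no unequal spread of groups. They therefore do not check the fit under such conditions.

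The 8 enzymes, the lists of neighbouring genes and the marker lists were chosen with earlier results of these data known, and the motifs after the values were seen. The genes named are the 8 enzymes, the called genes of each list (at most the 4 with the largest change per comparison), the 5 genes most like *G6pdx* and the 5 most like *Tkt*, *Atg5* and the markers. *Tktl1*, *Tktl2*, *G6pd2*, *Sftpc* and *Gapdh* were named after their values were seen. A gene of the lists is not reported here by name. Gene positions were taken from GENCODE on mm9 (NCBIM37) and promoters from RefSeq on GRCm38.p6.

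Alternatives tried were scaling to *Cdh1*, by median ratios or by quantiles, a pseudocount of 0.1, all genes without a filter, a fit of the compared groups alone, a replicate block, a fit without the mean-variance trend, an adjusted p under 0.05, a fold change of 2 or more, and leaving out each sample. Python 3.11.15 with matplotlib 3.10.9 drew the figures.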

Additional observations from a re-analysis of the deposited data

Results flagged for a closer look

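By the interaction term, the effect of BLM was called different between the genotypes for 3 of 7 tested enzymes, against 20.2% of all tested genes. The log2 effect of BLM in Atg5-/- AT2 cells minus that in Atg5f/f AT2 cells was -1.50 for *Taldo1* (adjusted p = 0.0123 from limma), -1.02 for *G6pdx* (adjusted p = 0.0638 from limma) and -0.69 for *Pgd* (adjusted p = 0.113 from limma). Of the 3, 1 passed adjustment, as did 842 of the 10675 tested genes. In each of the 3 the Atg5-/- AT2-PBS mean was above that of AT2-PBS and the Atg5-/- AT2-BLM mean below that of AT2-BLM. All 12 tested leukocyte markers and all 6 liver genes were called lower in the same term. The part of these markers in the 3 results was not tested.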

How the results depend on the processing

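No fragment counts were analysed, so the error of low values such as those of *Rpia* cannot be given, and each group held 3 samples. Of the log2 differences of the 7 tested enzymes under the alternatives, 694 kept their direction and their side of the criteria, 28 lost a call, 8 gained one and 33 changed sign.

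With BLM in Atg5f/f cells, 4 enzymes were called, 2 with scaling to *Cdh1* and 2 at a fold change of 2. Of all 10675 tested genes, 2202 were called higher and 829 lower. These counts were 986 and 1288 with *Cdh1*, 1235 and 1398 with quantile normalization and 1405 and 1355 with median ratios. They were 1398 and 458 by adjusted p and 726 and 256 at a fold change of 2, so the counts below fall beside a falling background. The log2 difference of *Tkt* was -0.24 with quantile normalization, -0.19 with median ratios and -0.23 with *Cdh1*, and between -0.10 and 0.064 with each sample left out. Of the lists, the accessory genes had 4 called and 0 at a fold change of 2. The nucleotide genes had 7, then 4 with quantile normalization, 4 with median-ratio scaling, 3 with *Cdh1* and 1 at a fold change of 2. The glucose 6-phosphate node had 9, then 4 with *Cdh1*, 5 by adjusted p and 2 at a fold change of 2. The other NADPH sources had 5, then 3 with each of the 3 scalings and by adjusted p, 2 at a fold change of 2, and 3 to 5 with a sample left out (3 without AT2-BLM replicate 3). The reductases had 8, then 5 at a fold change of 2. The NRF2 axis had 5, then 3 with no filter, quantile normalization, median-ratio scaling or adjusted p and 1 with *Cdh1* or a fold change of 2.

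With *Atg5* loss during BLM, 2 enzymes were called, 1 with quantile normalization, median-ratio scaling or only the compared groups, 0 with *Cdh1*, adjusted p or a fold change of 2, and 0 to 2 with a sample left out. Calls over all tested genes were 218 higher and 333 lower, against 355 and 90 with *Cdh1* and 253 and 272 with quantile normalization. They were 281 and 244 with median ratios, 1 and 0 by adjusted p and 26 and 75 at a fold change of 2. *Rpe* was at 0.061 with *Cdh1* and between -0.18 and 0.043 with a sample left out, and *Tkt* between -0.064 and 0.10. The accessory genes (1) and the glucose 6-phosphate node (1) fell to 0 by adjusted p and at a fold change of 2, and gave 0 to 2 and 0 to 1 with a sample left out, as did the nucleotide genes (0 to 2) and the other NADPH sources (0 to 1). The reductases (5) gave 3 with no filter, *Cdh1* or the replicate block, 0 by adjusted p, 2 at a fold change of 2 and 2 to 7 with a sample left out (2 without replicate 3 of either BLM group). The NRF2 axis (1) gave 2 with only the compared groups, 0 by adjusted p and 1 to 2 with a sample left out (2 without AT2-PBS replicate 1 or 2).

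With *Atg5* loss after PBS, 1 enzyme was called, 4 with *Cdh1* and 0 at a fold change of 2. Among all tested genes 1507 were called higher and 551 lower, against 2731 and 79 with *Cdh1* and 1043 and 70 at a fold change of 2. *H6pd* was at 0.047 and *Rpe* at 0.34 with *Cdh1*, *Tkt* at -0.055 after quantile normalization, and *Rpe* between -0.090 and 0.018 with a sample left out. With BLM in Atg5-/- cells, 1 enzyme was called (*H6pd*, but with *Cdh1* *Tkt* at -0.52), 0 by adjusted p or at a fold change of 2 and 0 to 1 with a sample left out. Over all tested genes 818 were called higher and 1144 lower, against 118 and 2444 with *Cdh1*. The counts were 256 and 667 by adjusted p and 134 and 780 at a fold change of 2. *G6pdx* was at -0.050 after median-ratio scaling and -0.41 with *Cdh1*, *Pgd* at -0.014 and -0.38, and *Pgls* and *Rpe* at -0.36 and -0.16 with *Cdh1*. With a sample left out, *G6pdx* lay between -0.12 and 0.26, *Pgls* between -0.027 and 0.21 and *Pgd* between -0.039 and 0.17. In the interaction 3 enzymes were called and 1 by adjusted p, beside 536 genes higher and 1620 lower, and 83 and 759 by adjusted p, over all tested genes. *H6pd* was at -0.052 with *Cdh1*, *Rpe* at 0.16 and 0.022 and *Tkt* at 0.18 and 0.038 with quantile normalization and with median ratios, and with a sample left out *Rpe* lay between -0.15 and 0.069 and *Tkt* between -0.13 and 0.041. The cause of these shifts was not tested.

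The correlations of deviations from the group means between same-numbered samples lay between -0.30 and 0.23. Those of differently numbered samples were not set beside them, so they do not decide whether the replicate numbers of the titles pair the samples. With the replicate block, the enzymes called stayed at 4, 2, 1, 1 and 3 in number over the 5 comparisons, and the reductases called with *Atg5* loss during BLM at 3.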
